A study of Mus musculus with 18 samples.

Results

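The 10 genes described here belong to the stress response that runs through the transcription factors ATF4 and CHOP: Atf4, Atf3, Ddit3 (which encodes CHOP), Trib3, Ddit4, Sesn2, Asns, Chac1, Vldlr and Hspa5. They were chosen by name, and all 10 were found in each of the 3 expression tables, out of 14804 genes listed in any of them. Mouse embryonic stem cells (ESCs, line E14), trophoblast stem cells (TSCs) and extraembryonic endoderm (XEN) cells were grown in normoxia (20% oxygen) or for 2 or 7 days in hypoxia (2% oxygen). Total RNA of 2 biological replicates per condition was sequenced, giving 18 libraries. No group carried a genetic change or a drug. ESCs were grown without feeders, TSCs on a feeder layer of fibroblasts, and XEN cells in medium conditioned on mouse embryonic fibroblasts. Each cell type is represented by cultured stem cells and not by embryos.

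The authors deposited TPM (transcripts per 1000000), in a table per cell type that was scaled on its own. For this reason no test was made between cell types. The values behaved as reads divided by the distance from the start to the end of a gene, introns included, and whole reads could be recovered from them. Libraries held 35592641 to 75204029 such reads, and the 10 genes had between 28 and 165822 reads each in a library. ESC markers summed to 6442 to 7300 TPM in the ESC libraries and XEN markers to 2169 to 2697 TPM in the XEN libraries. Summed TSC markers were at 1103 and 1105 TPM in normoxic TSCs, 952 and 1210.4 TPM on day 2, and 752 and 662 TPM on day 7. Fibroblast markers (8 of 8 listed) were present in every TSC library, at 1857 and 262 TPM in normoxia, 204 and 956 TPM on day 2, and 431 and 259.8 TPM on day 7. They summed to between 24.3 and 41.5 TPM in ESCs. The part of feeder RNA in the TSC results below was not tested, and in such bulk samples fewer cells of a type and less RNA per cell cannot be told apart.

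When proteins misfold in the endoplasmic reticulum, amino acids run short or mitochondria fail, kinases phosphorylate the translation factor eIF2α. General translation then slows, while the Atf4 transcript is translated better. ATF4 protein activates genes for amino acid synthesis and transport and also activates Ddit3, and CHOP and ATF4 together drive Trib3 and Chac1. The pathway is known as the integrated stress response. It is regulated largely at the level of ATF4 translation, so the Atf4 transcript is not a direct readout of ATF4 protein. Hypoxia is known to reach some of these genes by a separate route, since Ddit4 and Vldlr are also targets of the hypoxia-inducible factors (HIFs).

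Promoter sequences are shown for the genes in which an ATF4 recognition sequence was found, since ATF4 is the factor the pathway runs through. Each RefSeq promoter of the 10 genes (11 in all, since Vldlr has 2) was searched from 250 bases before to 50 bases after the start, on both strands, in build GRCm38.p6. The C/EBP-ATF response element, TGATGNAA, was found near 5 of the 10 genes. It occurred in 3.97% of all 32851 promoters of the same length. The matching stretches are written 5′ to 3′ on the strand of the motif, with the motif in capitals.
Atf3 (chr1:191183425-191183454, plus strand): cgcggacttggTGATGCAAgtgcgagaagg
Trib3 (chr2:152344028-152344057, plus strand): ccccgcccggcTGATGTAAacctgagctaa
Asns (chr6:7693214-7693243, minus strand): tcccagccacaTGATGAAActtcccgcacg
Chac1 (chr2:119351038-119351067, minus strand): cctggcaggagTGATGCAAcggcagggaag
Vldlr (chr19:27216809-27216838, minus strand): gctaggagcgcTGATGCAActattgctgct

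In Trib3 the element lay 15 bases after the RefSeq start, and in Asns and Vldlr it lay inside an annotated exon. The Vldlr match was in its second promoter. For Chac1, the bases up to its first annotated exon (chr2:119350992-119351228, plus strand) read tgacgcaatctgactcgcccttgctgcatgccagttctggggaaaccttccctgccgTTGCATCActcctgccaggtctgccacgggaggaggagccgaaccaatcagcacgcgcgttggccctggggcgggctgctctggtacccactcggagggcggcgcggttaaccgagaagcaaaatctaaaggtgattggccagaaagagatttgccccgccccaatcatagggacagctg, with the same element in capitals as it appears on this strand.

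Hspa5, the endoplasmic reticulum chaperone BiP, is controlled mainly by ATF6 and XBP1. Of the 10 genes it was the one whose promoter held the endoplasmic reticulum stress element (CCAAT, 9 bases of any kind, then CCACG), which 0.119% of all promoters held. The match lay 65 bases before the RefSeq start and inside an annotated exon.
Hspa5 (chr2:34772020-34772048, plus strand): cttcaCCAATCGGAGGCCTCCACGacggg

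The HIF core in the form ACGTG was found near Ddit3, Ddit4, Asns and Hspa5, against 19.6% of all promoters, and in the form GCGTG near 8 of the 10 genes, against 32.4%. The Ddit4 stretch is shown as that of a HIF target.
Ddit4 (chr10:59951942-59951968, minus strand): gaacgttgcgaACGTGcgcccggtgcc

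These matches are a description of the letters in the window and not of binding. The genes themselves lie, in GRCm38, at chr15:80255184-80257541 (Atf4, plus strand), chr1:191170296-191218039 (Atf3, minus), chr10:127290774-127296288 (Ddit3, plus), chr2:152337422-152344032 (Trib3, minus), chr10:59949669-59951834 (Ddit4, minus), chr4:132492032-132510501 (Sesn2, minus), chr6:7675169-7693254 (Asns, minus), chr2:119351229-119354381 (Chac1, plus), chr19:27216484-27254231 (Vldlr, plus) and chr2:34771970-34777547 (Hspa5, plus). Ddit3 overlaps a second annotated entry of the same name by 2925 bases and Mars by 68 bases, and Sesn2 overlaps Gm12981 by 6089 bases. How reads in these overlaps were assigned is not given in the sources used here, so the levels of Ddit3 and Sesn2 are uncertain to that extent.

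Levels in normoxia were compared between genes after recomputing TPM with summed exon lengths. Hspa5 was the most abundant and Vldlr the least abundant of the 10 genes in all 3 cell types. In ESCs the order on this exon scale was Hspa5 (559 ± 12.0 TPM, SD, n = 2), Asns (492 ± 49.0), Atf4 (385 ± 1.98), Sesn2 (281 ± 0.114), Ddit4 (110.5 ± 3.68), Trib3 (92.1 ± 3.54), Chac1 (68.1 ± 4.03), Ddit3 (12.0 ± 1.44), Atf3 (4.97 ± 0.0690) and Vldlr (2.63 ± 0.221). The replicates of neighbouring genes in that order did not overlap. In TSCs, Hspa5 (712 ± 0.976 TPM) was followed by Atf4 (329 ± 17.1), Asns (254 ± 7.07) and Sesn2 (252 ± 48.4), and the last pair overlapped. Ddit4 (99.5 ± 26.9), Atf3 (48.2 ± 21.2), Trib3 (22.9 ± 3.10), Ddit3 (21.9 ± 0.253), Chac1 (6.88 ± 2.97) and Vldlr (2.33 ± 1.39) came next, with Trib3 and Ddit3 overlapping. In XEN cells, Hspa5 stood at 1988 ± 435 TPM and Atf4 at 416 ± 29.7 TPM. Asns (356 ± 25.9), Atf3 (345 ± 342) and Sesn2 (275 ± 20.2) followed, and the replicates of Atf3 enclosed those of Atf4, Asns and Sesn2. The lower end of the XEN order was Ddit4 (44.0 ± 12.4), Ddit3 (30.6 ± 6.0), Trib3 (8.72 ± 0.0224), Chac1 (5.13 ± 1.96) and Vldlr (0.296 ± 0.0421).

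**Figure D1:**
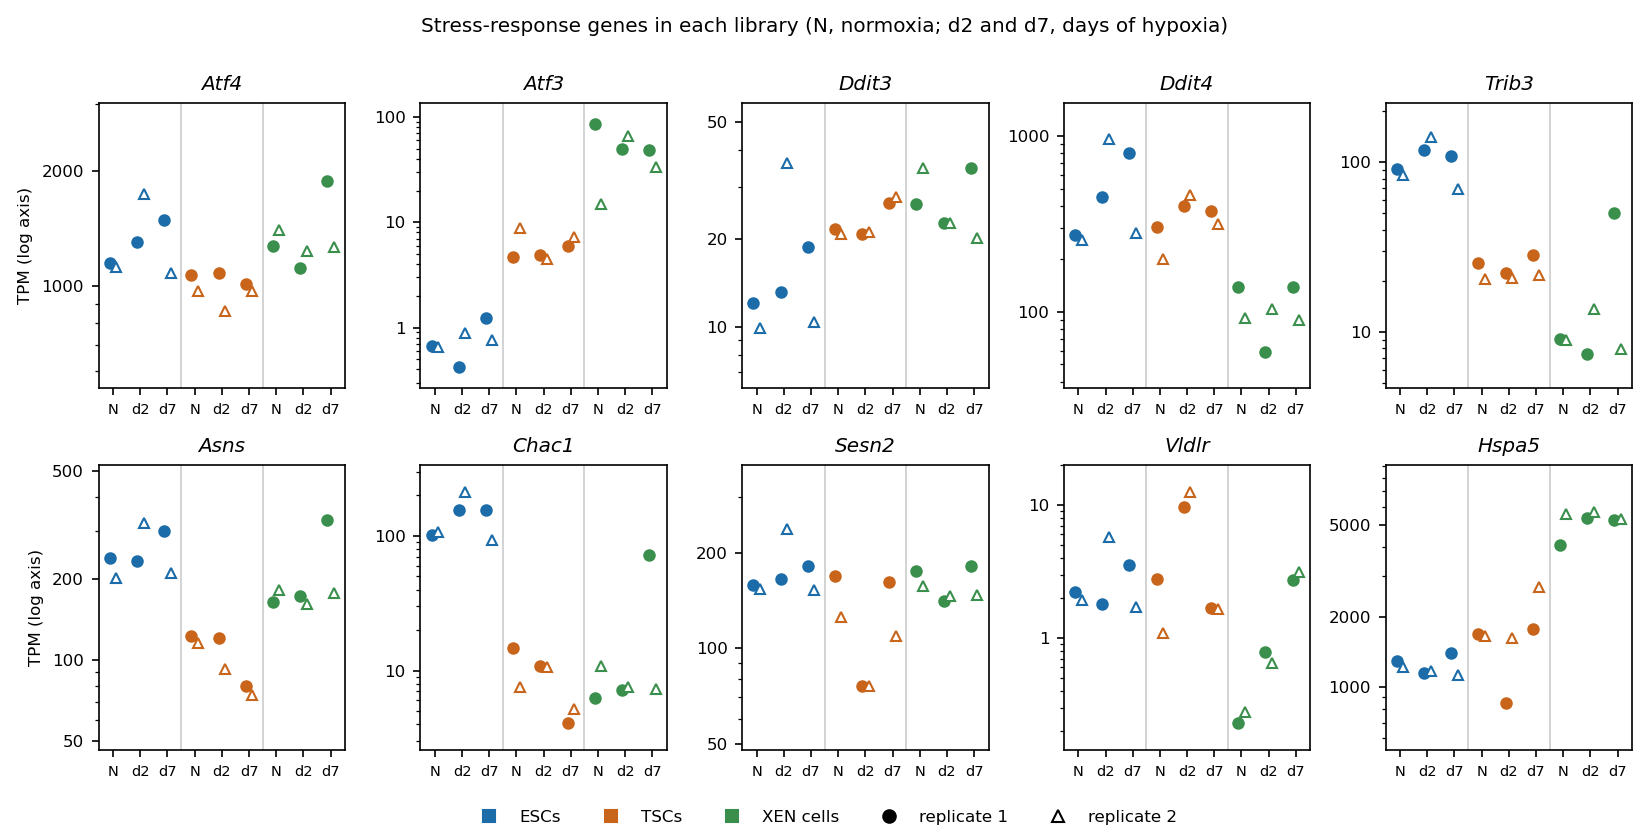
Deposited TPM (log axis) of each of the 10 genes in all 18 libraries, by cell type and condition, with a point per replicate. Within ESCs, replicate 2 of day 2 and replicate 1 of day 7 lie above the other library of their condition for all 10 genes, and in XEN cells Chac1 (71.8 TPM) and Trib3 (50.2 TPM) stand out in replicate 1 of day 7.

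Whether hypoxia changed these genes was asked in each cell type by comparing day 2 and day 7 with normoxia and with each other. All values from here on are deposited TPM, and fold changes are on the log2(TPM + 0.5) scale, which understates the change of low genes. A gene was called changed when limma, run on the 6 libraries of the cell type, gave a fold change over 1.5 and a p of at most 0.1 after Benjamini-Hochberg adjustment over all genes tested. All 10 genes passed the filter on low values in each cell type. Day 2 and day 7 share the normoxic libraries, so their fold changes are not independent. The sources do not say what separated the biological replicates, so p-values measure the spread between these libraries.

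In ESCs on day 2, 8 of the 10 genes had a fold change above 0, against 51.9% of all genes, with a median of 0.48 on the log2 scale against 0.010 for all 12271 genes tested. None of the 10 was called, and neither was any other gene (0%). At an unadjusted p under 0.05 there were 3 of the 10 genes and 620 genes in all, and voom on the recovered reads called 0 of the 10 and 4 in all. Both hypoxic libraries lay above both normoxic ones for 6 of the 10 genes, against 16.4% of all genes. Only Hspa5 had both below, against 14.4% of all genes.

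Among the transcription factors, Atf4 was at 1148 and 1124 TPM in normoxia and 1304 and 1745 TPM on day 2 in ESCs. Its groups did not overlap, and the fold change was 0.41 (SE 0.197, limma adjusted p = 0.97). Ddit3 was at 12.1 and 9.89 TPM in normoxia and 13.1 and 36.3 TPM on day 2, so most of its fold change of 0.97 (SE 0.429, limma adjusted p = 0.97) came from replicate 2. Atf3, a stress-inducible factor of the same family as ATF4, was at 0.664 and 0.658 TPM in normoxia and 0.423 and 0.887 TPM on day 2, which overlapped.

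Ddit4 (REDD1), an inhibitor of mTORC1 signalling, had the highest fold change of the 10 genes in ESCs on day 2. It was at 274 and 254 TPM in normoxia and 449 and 962 TPM on day 2, a fold change of 1.31 (SE 0.466, limma adjusted p = 0.910). Both hypoxic libraries were above both normoxic ones, but they were further apart from each other than the lower one was from normoxia. Trib3, a pseudokinase that dampens ATF4 and CHOP activity, was at 91.0 and 83.8 TPM in normoxia and 118 and 139.7 TPM on day 2 (0.55, SE 0.202, limma adjusted p = 0.937). Sesn2, a leucine sensor that also restrains mTORC1, was at 158 and 154 TPM in normoxia and 166 and 238 TPM on day 2.

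Of the metabolic genes, Chac1, an enzyme that degrades glutathione, was at 101 and 107 TPM in normoxic ESCs and 156 and 211 TPM on day 2. Its groups did not overlap (0.80, SE 0.237, limma adjusted p = 0.765). Asns (asparagine synthetase) was at 238 and 201 TPM in normoxia and 232 and 321 TPM on day 2, which overlapped. Vldlr, a receptor for triglyceride-rich lipoproteins, was at 2.22 and 1.92 TPM in normoxia and 1.80 and 5.75 TPM on day 2, with replicate 1 below normoxia. Hspa5 was at 1288 and 1215 TPM in normoxia and 1145 and 1175 TPM on day 2, a fold change of -0.11.

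On day 7 in ESCs, 9 of the 10 fold changes were above 0 (54.5% of all genes were), with a median of 0.21 against 0.022 for all genes. None of the 10 was called by limma or by voom, against 0.758% of all genes tested, and none had an unadjusted p under 0.05. Both hypoxic libraries were above both normoxic ones for 2 of the 10, Atf3 and Ddit4, against 23.0% of all genes. Ddit4 was at 794 and 279 TPM on day 7 (0.83, SE 0.466, limma adjusted p = 0.761), so that replicate 1 was far above normoxia and replicate 2 close to it. Atf3 was at 1.22 and 0.753 TPM.

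The other genes on day 7 in ESCs showed the same split between replicates. Atf4 was at 1488 and 1080.4 TPM, Ddit3 at 18.7 and 10.4 TPM, and Trib3 at 108 and 69.9 TPM. In each of the 3, replicate 1 was above normoxia and replicate 2 below the mean of normoxia. Sesn2 was at 182 and 152 TPM, Asns at 301 and 210.1 TPM, Chac1 at 157 and 93.6 TPM, Vldlr at 3.51 and 1.72 TPM, and Hspa5 at 1393 and 1128 TPM.

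Between day 7 and day 2 in ESCs, 8 of the 10 fold changes were below 0 (53.5% of all genes were above 0) and the median was -0.30, against 0.012 for all genes. None of the 10 was called by limma or voom, against 0.179% of all genes, and 2 had an unadjusted p under 0.05. Trib3 was the one gene whose day 7 libraries were both below those of day 2, as for 8.8% of all genes (-0.56, SE 0.202, limma adjusted p = 0.937).

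**Figure D2:**
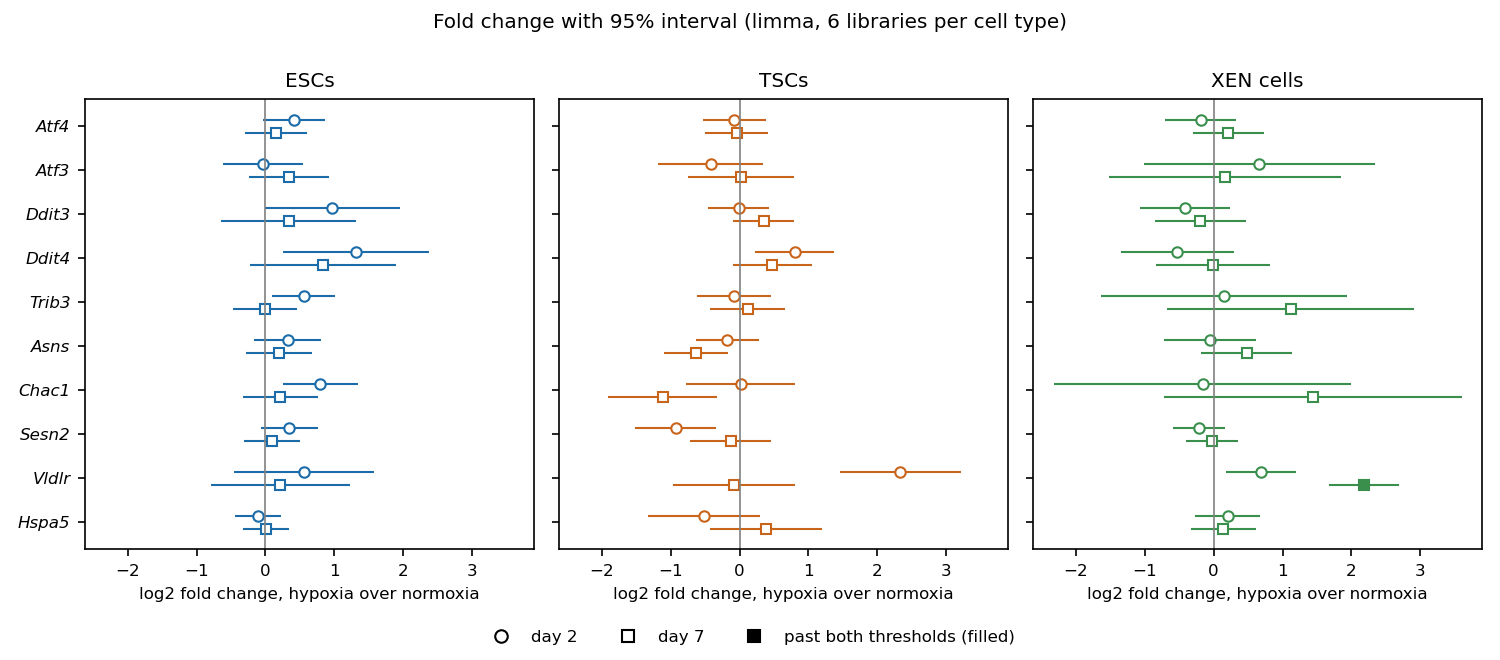
Log2 fold change of each gene on day 2 (circles) and day 7 (squares) against normoxia, with 95% intervals from limma, in the 3 cell types. Vldlr in XEN cells on day 7 (2.19) is the one filled point, past both thresholds, and Vldlr in TSCs on day 2 (2.33) lies as far to the right but missed the adjusted p. In XEN cells Vldlr passed the filter on low values only through its hypoxic libraries.

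The hypoxic replicates of ESCs differed in most of these genes by more than the median gene, whose difference had a size of 0.23 on the log2 scale on day 2 and 0.17 on day 7. The exception was Hspa5 on day 2, at -0.038. All 10 genes were higher in replicate 2 on day 2, as were 60.3% of all genes, and the median difference (replicate 1 less replicate 2) was -0.49 on the log2 scale against -0.085 for all genes. All 10 were higher in replicate 1 on day 7, as were 60.6% of all genes, with a median difference of 0.57 against 0.062 for all genes. In normoxia 9 of the 10 were higher in replicate 1, as were 71.5% of all genes, and the median was 0.097 against 0.10. For Ddit4 on day 7 the difference of 1.51 was the one ranked 13 by size among 12271 genes. On day 2, Vldlr (-1.45) and Ddit3 (-1.43) were ranked 78 and 80. The library with more of these transcripts also held more reads in both hypoxic conditions, 61958573 against 55134683 on day 2 and 56017126 against 39649656 on day 7. In normoxia, replicate 1 was higher for 9 of the 10 genes but held fewer reads, 37760283 against 50296395. The part of depth in the difference was not tested.

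Other genes of the pathway were read against the same shares of all genes, 60.3% higher in replicate 2 on day 2 and 60.6% higher in replicate 1 on day 7. Of 28 further ATF4 and CHOP targets tested in ESCs, 26 were higher in replicate 2 on day 2 and 27 were higher in replicate 1 on day 7. Of 16 aminoacyl-tRNA synthetases, many of which are ATF4 targets, 13 were higher in replicate 2 on day 2 and 14 in replicate 1 on day 7. Of the 10 hypoxia reference genes, 9 were higher in replicate 2 on day 2 and 9 in replicate 1 on day 7. Their mean, relative to normoxia, was 0.63 and 1.23 on the log2 scale on day 2 and 1.29 and 0.67 on day 7. Of 24 genes of the ATF6 and XBP1 branch, 15 were higher in replicate 2 on day 2 and 17 higher in replicate 1 on day 7, close to the shares of all genes. The 14 genes that encode eIF2 kinases, phosphatase subunits and related factors split 7 and 7 on both days. The ESC libraries in which hypoxia genes were higher were thus those with higher ATF4 and CHOP targets, and whether one followed from the other was not tested.

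When replicate 1 of day 2 was left out, 4 of the 10 genes were called higher in ESCs on day 2: Ddit3 (1.69, limma adjusted p = 0.0297), Ddit4 (1.86, 0.0712), Chac1 (1.01, 0.0789) and Vldlr (1.28, 0.0789). In that fit 494 of 12255 genes were called (4.03%), 346 of them higher. The fit has a lone day 2 library, which is assumed to vary like the other groups. When replicate 2 was left out instead, the median of the 10 was 0.14, none of them was called and 2 genes were called in all.

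**Figure D3:**
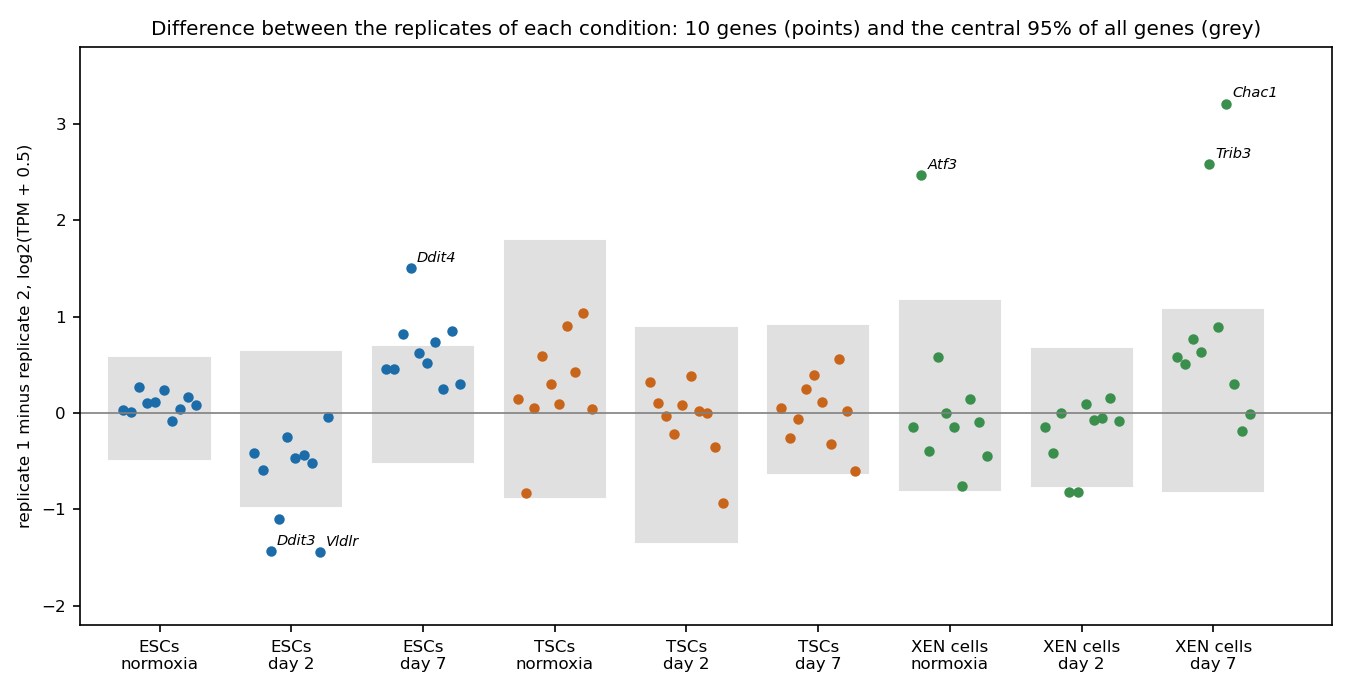
Difference between replicate 1 and replicate 2, in log2(TPM + 0.5), for each of the 10 genes (points) in the 9 conditions, with the range that holds the central 95% of all tested genes in grey. All 10 points lie below 0 for ESCs on day 2 and above 0 for ESCs on day 7, and Chac1 (3.21) and Trib3 (2.59) lie far outside the grey range for XEN cells on day 7.

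In TSCs, Vldlr had the largest fold changes of the 10 genes. Its level was 2.77 and 1.10 TPM in normoxia, 9.69 and 12.5 TPM on day 2 and 1.68 and 1.65 TPM on day 7. Both day 2 libraries were well above the other 4. The fold change on day 2 was 2.33 (SE 0.373, limma adjusted p = 0.116), just outside the threshold. The fall from day 2 to day 7 was called (-2.41, SE 0.373, limma adjusted p = 0.0214).

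On day 2 in TSCs none of the 10 was called by limma, against 0.2% of all 12481 genes tested. At an unadjusted p under 0.05 there were 3 of the 10 (Vldlr, Sesn2 and Ddit4) and 1639 genes in all, and voom called Vldlr (2.66, adjusted p = 0.0879) and 33 genes in all. Ddit4 was at 302 and 199.9 TPM in normoxia and 397 and 460.3 TPM on day 2 (0.80, SE 0.241, limma adjusted p = 0.264), with no overlap. Sesn2 was at 169 and 125 TPM in normoxia and 76.3 and 76.1 TPM on day 2 (-0.93, SE 0.248, limma adjusted p = 0.231), again with no overlap. The median of the 10 was -0.079, against 0.069 for all genes.

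Among the transcription factors in TSCs, Atf4 was at 1072 and 972 TPM in normoxia, 1083 and 863 TPM on day 2 and 1011 and 971 TPM on day 7. These overlapped throughout. Ddit3 was at 21.6 and 20.7 TPM in normoxia, 20.7 and 21.1 TPM on day 2, and 26.4 and 27.6 TPM on day 7. The day 7 libraries were above the other 4, with a fold change against normoxia of 0.35 (SE 0.187, limma adjusted p = 0.585). Atf3 was at 4.70 and 8.73 TPM, 4.89 and 4.50 TPM, and 5.93 and 7.21 TPM in the same order, and its replicates in normoxia enclosed the day 7 libraries.

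Day 7 against normoxia in TSCs gave no call among the 10 with limma or voom, against 0.385% of all genes, with 2 of the 10 and 1298 genes in all at an unadjusted p under 0.05. The median of the 10 was -0.010. The median of all genes was -0.18, and -0.24 between day 7 and day 2, so TPM of most genes were lower on day 7. After scaling each library by its median ratio, the medians of all genes were -0.0052 and 0.012. Chac1 was at 14.7 and 7.60 TPM in normoxia, 10.8 and 10.6 TPM on day 2, and 4.08 and 5.21 TPM on day 7, the day 7 libraries being below the other 4. Its fold change on day 7 was -1.11 (SE 0.335, limma adjusted p = 0.319), and -0.94 after median-ratio scaling. Asns was at 123 and 115 TPM in normoxia, 121 and 92.2 TPM on day 2, and 79.9 and 74.0 TPM on day 7 (-0.63, SE 0.195, limma adjusted p = 0.338), also below the other 4. Trib3 kept between 20.4 and 28.4 TPM in the 6 libraries.

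Between day 7 and day 2 in TSCs, 3 of the 10 genes were called, in a comparison in which 16.2% of all genes were (2.37% higher and 13.8% lower). Vldlr fell, Chac1 fell (-1.13, SE 0.335, limma adjusted p = 0.0841) and Sesn2 rose (0.80, SE 0.248, limma adjusted p = 0.0937), at 162 and 109 TPM on day 7. Of all genes called, 296 were higher and 1723 lower on day 7. After median-ratio scaling, the split was 724 and 982. On that scaling Vldlr (-2.17) and Sesn2 (1.08) were still called. Chac1 was not (-0.87, limma adjusted p = 0.153), and Ddit3 was called higher (0.64, limma adjusted p = 0.0910). The 3 calls were all lost when any of replicate 1 of day 2, replicate 1 of day 7 or replicate 2 of day 7 was left out, which left Vldlr at adjusted p between 0.106 and 0.182. Without replicate 2 of day 2, Vldlr (adjusted p = 0.0566) and Hspa5 were called, and 12.4% of all genes were. In the fit with the fewest calls over all genes, 0 were called.

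Hspa5 in TSCs was at 1698 and 1653 TPM in normoxia, 849 and 1622 TPM on day 2, and 1777 and 2704 TPM on day 7. One day 2 library was thus at a low level while the other was near normoxia. In the same library, 22 of 24 other ATF6 and XBP1 genes were below their level in replicate 2, as were 49.9% of all genes. The fold change from day 2 to day 7 was 0.90 (SE 0.344, limma adjusted p = 0.146), and 1.37 (adjusted p = 0.0606) without replicate 2 of day 2. Fibroblast markers differed between these same day 2 libraries (204 and 956 TPM), and their part in the Hspa5 difference was not tested.

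The hypoxia reference genes followed the course of Vldlr in TSCs. Their mean relative to normoxia was 1.39 and 1.64 on the log2 scale on day 2 and 0.30 and 0.35 on day 7. On day 2, 3 of 10 were called higher, among them Pdk1 (2.47, SE 0.186, limma adjusted p = 0.0191), which encodes a kinase that holds pyruvate out of the citric acid cycle, and Bnip3 (2.46, SE 0.181, limma adjusted p = 0.0191), a mitophagy receptor. None was called on day 7 against normoxia, and 7 of 10 were called lower on day 7 than on day 2, where 13.8% of all genes were. TSC markers fell over the same interval, with 5 of 6 called lower. After median-ratio scaling, 2 hypoxia reference genes and 3 TSC markers were called lower. The part of this change of cell state in the results on the 10 genes was not tested.

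In XEN cells, Vldlr rose on day 7 and was the only one of the 10 genes called. Vldlr was at 0.228 and 0.279 TPM in normoxia, 0.784 and 0.650 TPM on day 2, and 2.72 and 3.15 TPM on day 7. The 3 conditions did not overlap. Its normoxic values lay under the filter on low values and rest on 28 and 56 reads, so it was tested only because it was high in hypoxia. The fold change was 0.69 on day 2 (SE 0.214, limma adjusted p = 0.546) and 2.19 on day 7 (SE 0.214, limma adjusted p = 0.0366). With voom on the recovered reads, the day 7 fold change was 3.49 (adjusted p = 0.0531). The day 7 call was lost in a fit to the 4 libraries compared (adjusted p = 0.246), without either day 2 library (0.238 in each case) and without replicate 1 of day 7 (0.345).

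On day 2 in XEN cells 4 of the 10 fold changes were above 0, against 48.9% of all genes. None of the 10 genes, and no gene in all (0%), was called by limma or by voom. At an unadjusted p under 0.05 there were 1 of the 10 and 846 of the 10894 genes tested. Both hypoxic libraries were above both normoxic ones for Vldlr alone, against 19.6% of all genes, and below for 3 of the 10, against 21.4%. Those 3 were Atf4, at 1271 and 1406 TPM in normoxia and 1116 and 1234 TPM on day 2 (-0.19), Ddit3, at 26.3 and 34.8 TPM and 22.6 and 22.6 TPM (-0.41), and Sesn2, at 175 and 158 TPM and 142 and 147 TPM (-0.21). None of the 3 passed the test. Ddit4 was at 138 and 91.9 TPM in normoxia, 58.5 and 104 TPM on day 2, and 139 and 89.3 TPM on day 7, with overlapping replicates at both times.

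Atf3 in XEN cells was at 85.2 and 15.0 TPM in normoxia, 49.5 and 66.0 TPM on day 2, and 48.1 and 33.8 TPM on day 7. The normoxic replicates enclosed all 4 hypoxic libraries and differed by 2.47 on the log2 scale, ranked 39 by size among the 10894 genes. Without replicate 1 of normoxia, Atf3 was called higher on day 2 (1.90, limma adjusted p = 0.0752), as 0.470% of all genes were, and without replicate 2 its fold change was -0.57.

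On day 7 in XEN cells, none of the 10 genes other than Vldlr was called. Over all genes 0.110% were called, and nothing is read from the one member call against that share, since Vldlr entered the test through its hypoxic libraries. Of the 10 fold changes, 7 were above 0, against 45.1% of all genes, and the median was 0.19 against -0.031 for all genes. Both hypoxic libraries were above both normoxic ones for Vldlr alone, against 17.5% of all genes. The levels of Chac1 and Trib3 on day 7 differed most between the replicates. Chac1 was at 6.25 and 10.9 TPM in normoxia, 7.15 and 7.54 TPM on day 2, and 71.8 and 7.30 TPM on day 7. Trib3 was at 9.04 and 9.0 TPM, 7.45 and 13.6 TPM, and 50.2 and 7.95 TPM in the same order. In both genes replicate 1 of day 7 was far above, and replicate 2 within, the range of the other 4 libraries.

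Asns was at 164 and 182 TPM in normoxia, 172 and 161 TPM on day 2, and 329 and 177 TPM on day 7. Atf4 was at 1891 and 1265 TPM on day 7 and Ddit3 at 34.7 and 20.1 TPM. Replicate 1 was the higher in each of these. Sesn2 was at 183 and 148 TPM, with a smaller difference. Hspa5 was at 4099.7 and 5599.9 TPM in normoxia, 5364 and 5685 TPM on day 2, and 5262 and 5315 TPM on day 7, and its day 7 replicates were close together.

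The difference between the day 7 replicates in XEN cells was 3.21 for Chac1 and 2.59 for Trib3 on the log2 scale, ranked 4 and 13 by size among the 10894 genes. For Asns it was 0.90. In all, 8 of the 10 genes were higher in replicate 1, with a median of 0.61, against 51.3% of all genes and a median of 0.0099. Of 24 further ATF4 and CHOP targets, 22 were higher in replicate 1, with a median difference of 0.89. The mitochondrial enzyme gene Pck2 was at 93.4 and 28.7 TPM and the proline synthesis gene Pycr1 at 51.3 and 12.0 TPM. Ndrg1, a stress-responsive gene that is also a HIF target, was high in both, at 11.9 and 13.6 TPM against 4.62 and 3.22 TPM in normoxia (1.6, SE 0.251, limma adjusted p = 0.132). Of the ATF6 and XBP1 genes, 10 of 24 were higher in replicate 1, and of the hypoxia reference genes 3 of 9. On day 7 in XEN cells, hypoxia reference genes were thus higher in replicate 2 (0.94 and 1.22 relative to normoxia in replicates 1 and 2). ATF4 and CHOP targets were higher in the other library, unlike in ESCs. On day 2 in XEN cells, replicate 2 was higher for 8 of the 10 genes, 14 of 24 further targets and 8 of 9 hypoxia reference genes. It was also higher for 51.0% of all genes. Replicate 1 of day 7 again held more reads, 50419376 against 35592641, while replicate 2 of day 2 held fewer, 71085278 against 75204029. Without replicate 2 of day 7, Chac1 was called higher than in normoxia (3.04, limma adjusted p = 0.0702) together with Vldlr, in a fit that called 0.397% of all genes. Without replicate 1 its fold change was -0.17.

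Between day 7 and day 2 in XEN cells, none of the 10 was called by limma or voom, against 0.0367% of all genes, and 1 of the 10 (Vldlr) and 1295 genes in all had an unadjusted p under 0.05. Vldlr had a fold change of 1.5 (SE 0.214, limma adjusted p = 0.218). In a limma fit to the 4 libraries compared it was called (adjusted p = 0.0983). Apart from fits with a library left out, the alternatives called between 2 and 37 genes in all there, against 4. Without replicate 2 of day 7, which leaves a lone day 7 library, the fold change of Chac1 was 3.20.

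**Figure D4:**
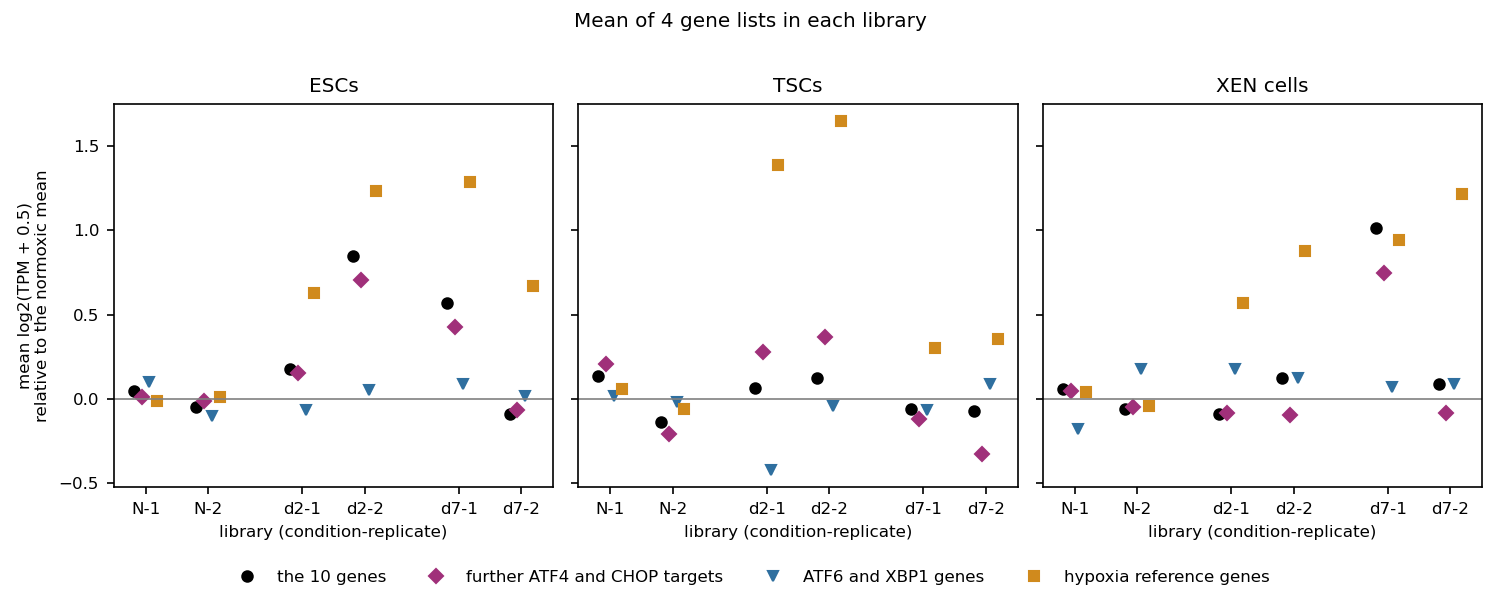
Mean log2(TPM + 0.5) of 4 gene lists in each library, relative to the normoxic mean of the cell type. The 10 genes and the further ATF4 and CHOP targets are highest in the same hypoxic libraries of ESCs and XEN cells, the hypoxia reference genes are above 0 in every hypoxic library (0.30 to 1.64), and the ATF6 and XBP1 genes lie between -0.18 and 0.18 apart from replicate 1 of day 2 in TSCs (-0.42).

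The wider pathway was read from 4 lists that hold 85 genes. In ESCs and XEN cells, no gene of these lists was called by limma in any comparison. At an unadjusted p under 0.05 there were 0 to 10 genes of a list, and 523 to 1295 genes in all. Among the further ATF4 and CHOP targets in ESCs on day 2, 24 of 28 fold changes were above 0, with a median of 0.41. Of the 28, 10 had an unadjusted p under 0.05 in limma, as did 620 of the 12271 genes tested. Replicate 2 of day 2 was the higher one for 26 of the 28. Fgf21, which encodes a stress-induced hormone, was at 2.37 and 1.68 TPM in normoxia and 7.00 and 8.20 TPM on day 2 (1.69, SE 0.210, limma adjusted p = 0.215). Its replicates were close together and its groups far apart, but the adjusted p missed the threshold. The secreted glycoprotein gene Stc2 was at 17.3 and 20.9 TPM in normoxia and 30.8 and 60.2 TPM on day 2 (1.16, SE 0.332, limma adjusted p = 0.721). The aminoacyl-tRNA synthetases (median 0.11, 14 of 16 above 0), the ATF6 and XBP1 genes (-0.091, 10 of 24 above 0) and the eIF2 genes (-0.021, 5 of 14 above 0) had smaller medians. On day 7 in ESCs, 21 of the 28 further targets were above 0. The largest change was that of Cebpb, at 14.1 and 64.9 TPM in normoxia and 12.7 and 6.75 TPM on day 7 (-1.66, SE 0.599, limma adjusted p = 0.492). On day 2 in XEN cells, 11 of 24 further targets were above 0, and Cebpb (-0.95) and Bbc3 (-0.58) changed most.

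In TSCs, Ndrg1 was the one further target called higher on day 2, where 0.2% of all genes were called, and it was not called after median-ratio scaling. It was at 23.2 and 38.9 TPM in normoxia and 148 and 107 TPM on day 2 (2.05, SE 0.289, limma adjusted p = 0.0983). From day 2 to day 7, 7 of 25 further targets were called lower and none higher, against 13.8% and 2.37% of all genes. After median-ratio scaling, which moved the calls over all genes from 296 higher and 1723 lower to 724 and 982, 4 of the 25 were called lower and 3 higher. Stc2 (-2.07, SE 0.249, limma adjusted p = 0.0161), Ndrg1 (-1.75, SE 0.289, limma adjusted p = 0.0242) and Pycr1 (-1.72, SE 0.289, limma adjusted p = 0.0258) fell most, and these 3 were called on that scaling too. The median of this list was -0.58, against -0.24 for all genes. One gene was called lower in each of 2 other lists, the mitochondrial stress relay gene Dele1 (-0.71, limma adjusted p = 0.0722) and the valyl-tRNA synthetase gene Vars (-0.72, limma adjusted p = 0.0503). Selenos, of the endoplasmic reticulum degradation machinery, was called higher (0.90, limma adjusted p = 0.0911). After median-ratio scaling Selenos was still called, and Dele1 and Vars were not. No gene of the 4 lists was called by limma on day 7 against normoxia in TSCs. At an unadjusted p under 0.05 there were 0 to 5 genes of a list, and 1298 genes in all. Of the 25 further targets 10 were above 0 in that comparison, and Slc7a5 (-1.07) and Stc2 (-0.98) changed most.

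The genes whose levels followed those of the members most closely were ranked over the 18 libraries, each centred on the mean of its cell type, among 10080 genes tested in all 3. These correlations share libraries and depth and are given as a description. For Trib3 they were Eif4ebp1, an ATF4 target that encodes a repressor of cap-dependent translation (Pearson r = 0.89), Aifm2 (0.87) and Smpd1 (0.86). For Ddit3 they were Pgpep1 (0.84), Hax1 (0.83) and Atf4 itself (0.79). For Ddit4 they were Sigirr (0.90), Pgpep1 (0.88) and Zfp606 (0.83). Among the 10 genes, the pair that moved together most closely was Asns and Chac1 (0.89), followed by Trib3 and Chac1 (0.82) and Atf4 and Asns (0.81). In XEN cells, replicate 1 of day 7 was far above the other libraries in Asns (329 TPM), Chac1 (71.8 TPM) and Trib3 (50.2 TPM). The part of that library in these correlations was not tested. Atf3 had a correlation of -0.010 with Atf4 and of 0.12 with Trib3.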

How the data were processed

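Bulk RNA-seq of ESCs, TSCs and XEN cells was used, with 2 replicates in each of 9 groups. Per the labels and the study's methods, the authors trimmed reads with cutadapt 2.4, aligned them to mm10 with STAR 2.7.5a, ran StringTie 2.0.6, counted with featureCounts and kept genes by a CPM minimum with edgeR 3.26.8. The authors deposited TPM in a table per cell type, with columns of day 0 taken as normoxia. Each library sums to 1000000 TPM. Whole reads were recovered from TPM and gene span, and 98.7% to 98.9% of values lay within 0.05 of a whole multiple. They set the depth given in the report.

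Genes whose TPM exceeded 0.4 in 2 or more libraries of a cell type were tested with limma 3.58.1 (R 4.3.3, trend) on log2(TPM + 0.5), per cell type, and adjusted over all genes tested. On data simulated for day 7 against normoxia, the fit found nearly all 4-fold changes and fewer of the 2-fold ones. The spread between replicates was set in that simulation and not taken from these libraries. The simulation therefore does not give the share of real changes missed here. The members and lists were chosen with earlier results of these data known. All 10 members are named. From each list, up to 3 called genes per direction and comparison are named, or, where none was called, some of the up to 2 largest changes. The 3 most similar genes are named for Trib3, Ddit3 and Ddit4. Hypoxia reference genes are given by counts and means, with Pdk1 and Bnip3 named. Lineage markers and fibroblast markers are given by counts or sums. With 2 against 2 libraries an exact permutation test cannot go below 0.333, so none was used. Alternatives were other pseudocounts and filters, median-ratio scaling, a replicate block, the 4 libraries compared, voom on recovered reads and each library left out. Motifs were searched in RefSeq promoters, in Python 3.11.15.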

Additional observations from a re-analysis of the deposited data

Results flagged for a closer look

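For 3 genes, both hypoxic libraries of one cell type lay on the opposite side of normoxia from those of another on day 2. The tables of the cell types were scaled separately, so the difference between them was not tested, and none of these changes passed limma's test in its own cell type. Atf4 was higher in ESCs (0.41 on the log2 scale) and lower in XEN cells (-0.19). Ddit3 was higher in ESCs (0.97) and lower in XEN cells (-0.41). Sesn2 was higher in ESCs (0.35) and lower in TSCs (-0.93) and XEN cells (-0.21). Of all genes tested, 16.4% had both day 2 libraries above normoxia in ESCs, and 21.4% had both below in XEN cells. The share of all genes on opposite sides in different cell types was not computed, so nothing is read from the count of 3.

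The effect of hypoxia in TSCs differed between day 7 and day 2 for 3 genes by limma's test of that difference. In that comparison 16.2% of all genes were called. Chac1 was not called after median-ratio scaling, and all 3 calls depended on which libraries were kept. The day 7 effect less the day 2 effect was -2.41 for Vldlr, -1.13 for Chac1 and 0.80 for Sesn2 on the log2 scale.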

How the results depend on the processing

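Under the alternatives, 118 recomputed counts of members called were the same as or close to the reported count, and 17 differed by more. A count of 2 against the reported 3 in TSCs for day 7 against day 2 was taken as close. With a library left out, between 0 and 4 members were called in the day 2 comparison of ESCs and between 0 and 1 in day 7 against day 2. TSCs gave 0 to 1 (day 2) and 0 to 3 (day 7 against day 2), and XEN cells 0 to 1 (day 2), 0 to 2 (day 7) and 0 to 1 (day 7 against day 2). Voom gave 1 in TSCs on day 2, no filter gave 1 in TSCs for day 7 against day 2, and the fit to 4 libraries gave 0 in XEN cells on day 7 and 1 for day 7 against day 2. No named change turned direction while called.

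Replicate numbers were not used to pair the libraries in the reported fit. Correlations of same-numbered deviations ran from -0.46 to 0.27, which cannot show whether libraries were prepared in pairs. With a replicate block, Chac1 in TSCs (day 7 against day 2, -1.13) had adjusted p = 0.105, and no other member's call changed. With the block and the day 2 numbers swapped, an alternative chosen after seeing the data, 2 members were called in TSCs on day 2, against 0. Apart from fits with a library left out, the alternatives called between 0 and 326 genes in all there, against 25. The 2 calls are therefore not read as a result about these members.

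Calls over all genes moved more, over all alternatives from 0 to 494 in ESCs on day 2 (0 in the reported fit), 7 to 326 on day 7 (93) and 0 to 194 for day 7 against day 2 (22). For TSCs the ranges were 0 to 326 (25), 0 to 220 (48) and 0 to 2778 (2019), and for XEN cells 0 to 61 (0), 1 to 197 (12) and 0 to 78 (4), in the same order. The cause was not tested. In TSCs, fold changes of Atf4, Sesn2 and Vldlr on day 7 and of Chac1 on day 2, none of them called, changed sign with median-ratio scaling.

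With 2 replicates per group, a change of these genes must exceed the spread between replicates to be called. For Chac1 in XEN cells on day 7, the 95% interval of the log2 fold change ran from -0.72 to 3.60.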
